A study of Mus musculus with 5 samples.

Results

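Of the 2849 Paupar peaks deposited from CHART-Seq in neuro 2A (N2A) cells, 891 (31.3%) lay in intergenic sequence at an intermediate distance from genes. A peak was counted here when its midpoint was more than 5 kb and at most 100 kb from the nearest start of a protein-coding gene and inside the body of no protein-coding gene, in the mouse assembly mm9. The rule uses position only and no measured value. N2A is a mouse neuroblastoma line, used as a model of neural cells, and 1 established line does not stand for neural tissue. All 5 libraries came from this line: 2 pull-downs with oligonucleotides directed at Paupar, 2 control pull-downs with a LacZ oligonucleotide, and 1 input DNA library. None of the groups carried a further treatment or allele in the labels. The data are 1 list of intervals, each with a score. It holds no value for any library, so the depth is unknown, replicates could not be compared, and no test between conditions was possible.

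Paupar is a long non-coding RNA transcribed next to Pax6, a gene for a transcription factor of the developing eye and brain. In CHART, biotinylated DNA oligonucleotides hybridise to exposed stretches of an RNA in cross-linked chromatin, and the DNA that comes down with the RNA is sequenced. Intergenic sequence at this distance from genes is where many enhancers lie, but it also holds repeats and non-coding genes, and nothing in the list says which genes, if any, a peak acts on. "Nearest gene" below is a matter of position only. All intervals are 95% intervals (Wilson for shares, exact Poisson for densities). They cover counting error only, treat each peak as independent, and say nothing of the spread between pull-downs.

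The 4 Paupar capture oligonucleotides, 24 nt each, are shown first. The centres of the members shared stretches of 10 bases with CHART254 and CHART2041 more often than windows 1 kb outside did. For CHART428 and CHART2067 the intervals overlapped. Capitals mark, in each, the stretch of 10 bases that no other of its stretches exceeded in the number of members holding it, 13 to 17 of the 891. In the order shown, the marked stretches were in 1.57%, 1.80%, 1.91% and 1.46% of members. Sequences of the same size beside the members held them in 0.393%, 0.674%, 0.618% and 0.449%. The stretches were picked by their count in members, which favours the members in this comparison.

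CHART254: ggcttaagTCCACCCCTGgattcg
CHART428: gcctggaactagatCAAGGCAGAG
CHART2041: CTCTCAGAAActgcgatacaaaag
CHART2067: gaggcctagtcAAAATATCTCcac

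The member with the longest exact match to any of them, 13 nt, is shown next, followed by the 5 with the highest scores among the 13 members that tied at 12 nt, with up to 30 bases on each side and the match in capitals. Each is read on the strand that matches the oligonucleotide.

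Arrdc3, chr13:81091894-81091966, plus strand, CHART2067: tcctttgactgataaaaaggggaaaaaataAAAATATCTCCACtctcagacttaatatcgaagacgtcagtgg
Skap2, chr6:52021006-52021077, minus strand, CHART254: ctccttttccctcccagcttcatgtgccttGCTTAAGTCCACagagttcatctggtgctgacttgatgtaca
Gm11733, chr11:117408066-117408137, minus strand, CHART2067: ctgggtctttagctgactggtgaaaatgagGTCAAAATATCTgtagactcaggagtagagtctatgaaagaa
Myb, chr10:20909250-20909321, plus strand, CHART428: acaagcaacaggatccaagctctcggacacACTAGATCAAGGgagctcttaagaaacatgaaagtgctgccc
Ldlrad3, chr2:102038706-102038777, plus strand, CHART2067: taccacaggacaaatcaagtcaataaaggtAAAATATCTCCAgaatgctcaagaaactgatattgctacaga
Suclg2, chr6:95682101-95682172, minus strand, CHART254: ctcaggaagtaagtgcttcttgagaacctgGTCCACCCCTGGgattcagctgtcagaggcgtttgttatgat

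No member matched a whole capture oligonucleotide. The longest match, 13 nt, lay in a member 69457 bp downstream of the start of Arrdc3, which had a score of 25.44. Of the 891 members, 14 held a match of at least 12 nt, which is 1.57% (0.938 to 2.62). The sequences of the same size on both sides of the members reached this length in 0.787% (0.469 to 1.32) of 1780, and these intervals overlap. The member near Skap2, an adaptor gene, had a score of 74.66 and ranked 11 among all members.

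Members were spread through the territory that the rule allows at 1.31 peaks per Mb (1.23 to 1.40), over 678 Mb. This territory is 26.5% of the unambiguous bases of the assembly and held 31.3% of the peaks. Sequence within 5 kb of a start had 2.29 peaks per Mb (2.09 to 2.51) and distal sequence inside gene bodies had 1.24 (1.17 to 1.32). Intergenic sequence over 100 kb from any start had 0.498 (0.450 to 0.550). The members were thus less dense than peaks near starts and denser than peaks in remote intergenic sequence, with intervals apart in both cases, while the interval overlapped that of gene bodies.

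**Figure D1:**
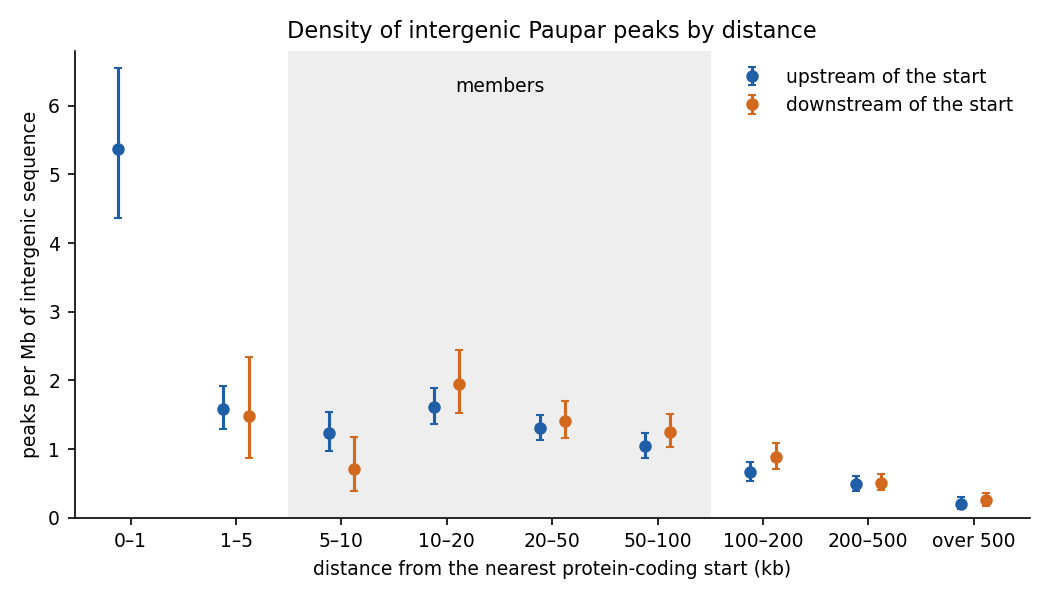
Peaks per Mb of intergenic sequence (vertical axis) by distance from the nearest protein-coding start in kb (horizontal axis), upstream (blue) and downstream (orange) of that start. Bars are 95% exact Poisson intervals, the members lie in the shaded classes, and the downstream class within 1 kb, which held 0 peaks, is not drawn. Upstream, density is highest within 1 kb of the start. Across the members it stays between 0.705 and 1.94 per Mb on either side, and over 500 kb out it is 0.200 upstream and 0.256 downstream.

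Density did not fall evenly across the range. Over both sides it was 1.11 per Mb (0.897 to 1.36) from 5 to 10 kb, 1.71 (1.49 to 1.95) from 10 to 20 kb, 1.34 (1.20 to 1.49) from 20 to 50 kb and 1.12 (0.988 to 1.27) from 50 to 100 kb. The class from 10 to 20 kb was therefore the densest, with an interval apart from those of the nearest and the farthest class. Below 10 kb the downstream side was thin, with 14 members in 19.9 Mb against 80 in 64.9 Mb upstream. The median distance of a member was 28569 bp, and the middle 50% lay between 15073 and 53094 bp.

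The limits of the rule fell within a continuous spread of positions. Just inside 5 kb lay a member 5067 bp upstream of 2200002K05Rik with a score of 30.91 and another 5094 bp upstream of Dazap2 with a score of 9.31. Just outside lay peaks 4982 bp from Amn1 (score 25.78) and 4961 bp from Zfp872 (score 15.12). At the outer limit, the members nearest to it were 99830 bp from Postn (score 12.17) and 99710 bp from Hrh4 (score 7.27). The first peaks beyond it were 100302 bp from Pax8 (score 8.52) and 101578 bp from Fn1 (score 30.08).

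Members lay upstream and downstream of genes in about the proportion of the bases there. Of the 891, 579 (65.0%, 61.8 to 68.0) lay upstream of the nearest start, and 66.7% of the territory's bases lie upstream, since bases beyond a start are mostly gene body. Densities were 1.28 per Mb (1.18 to 1.39) upstream and 1.38 (1.23 to 1.54) downstream. The orientation of the flanking genes gave a similar picture. Gaps between genes read in the same direction held 487 members at 1.35 per Mb (1.24 to 1.48), gaps between divergent genes 226 at 1.17 (1.02 to 1.33) and gaps between convergent genes 176 at 1.44 (1.24 to 1.67). The gap around a member had a median length of 101144 bp, and 2 members lay beyond the last gene of a chromosome.

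Chromosomes differed more than sides did. Chromosome 8 held 84 members at 2.84 per Mb of its own territory (2.27 to 3.52), 2.16 times the density over all chromosomes. Chromosome 15 followed with 2.11 (1.56 to 2.78), chromosome 11 with 1.93 (1.45 to 2.50) and chromosome 2, which carries Paupar and Pax6, with 1.83 (1.45 to 2.26). The lowest density was on the X chromosome, with 12 members in 53.2 Mb or 0.225 per Mb (0.117 to 0.394). Chromosomes 18 (0.553), 14 (0.816) and 7 (0.846) were also low. On these 8 chromosomes the interval left out the density over all chromosomes, and on the other 12 with members it did not. The density on chromosome 8 did not come with other scores, as its members had a median score of 12.325 against 13.07 for the remaining members. The number of chromosome copies in N2A cells was not measured here, and its part in these densities was not tested.

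Scores and widths of the members resembled those of other peaks. The score ran from 5.34 to 305.37 with a median of 12.98 and quartiles of 9.71 and 18.88. Its scale is not stated in the list, and it is used here only to rank. The medians of the other classes were 13.4 within 5 kb, 12.43 inside gene bodies and 11.93 over 100 kb out. Widths ran from 171 to 9443 bp with a median of 563 bp, against 597, 557 and 487 bp in those classes. A width over 1 kb was found for 18.0% of members (15.6 to 20.6), and the intervals of the other classes overlapped this one.

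The member with the highest score was also the highest and the widest of the whole list. It covered chr15:100745135-100754577, 14004 bp upstream of Scn8a, a voltage-gated sodium channel gene of neurons, with a score of 305.37 and a width of 9443 bp. A second member, with a score of 12.17, lay beside it, 20376 bp upstream. The central 200 bp of the wide member are shown because it leads the list, and capitals mark the letters that belong to 1 of the 10 6-mers described below.

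Scn8a, chr15:100749756-100749955, plus strand: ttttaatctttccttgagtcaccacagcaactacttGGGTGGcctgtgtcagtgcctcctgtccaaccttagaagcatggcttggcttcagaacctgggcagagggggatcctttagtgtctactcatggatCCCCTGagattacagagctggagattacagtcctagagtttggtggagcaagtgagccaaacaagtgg

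Only 12 of these 200 letters were in capitals. Peg10, an imprinted gene derived from a retrotransposon, came next with a member 15560 bp downstream of its start, which had a score of 151.88. Plch2, a phospholipase C gene, followed with a score of 127.47 at 11741 bp, and Myo16, a myosin gene, with 126.43 at 88005 bp. The remaining members of the top 10 lay nearest to Gm17379 (97.29), Fcho1 (96.77), Tagap (95.38), 1700026D08Rik (93.38), Casz1 (78.56) and Scaf11 (77.67). Of the 10, only the member of Peg10 lay downstream of its nearest start. After Scn8a, the widest were a member of 6399 bp near Gm853 and the member of 6294 bp near 1700026D08Rik.

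**Figure D2:**
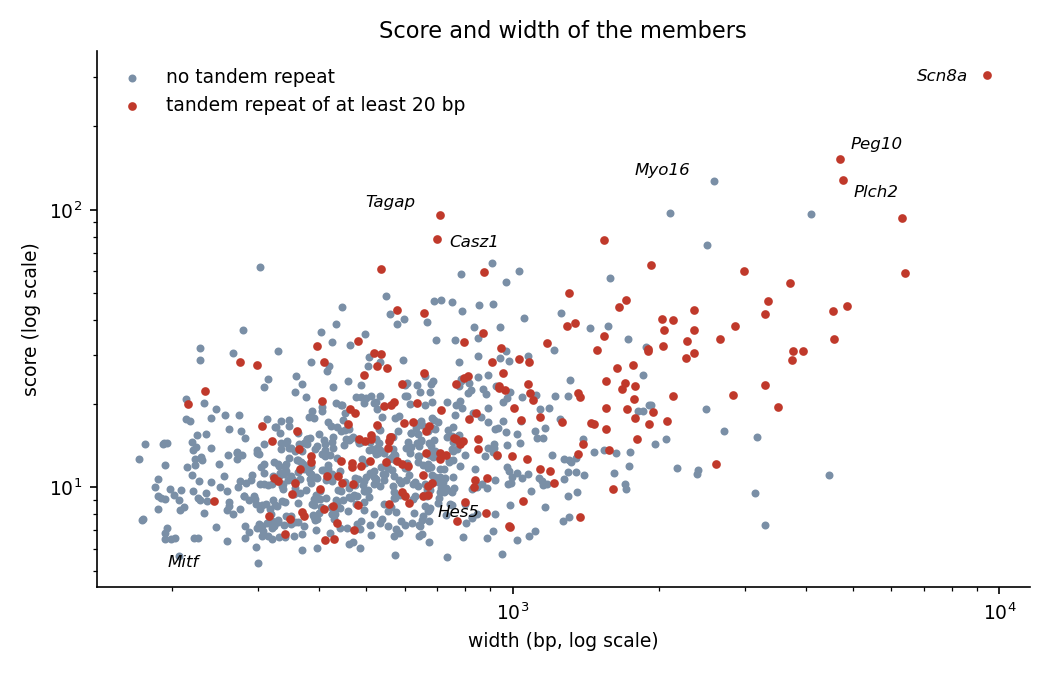
Score (vertical axis, log scale) against width in bp (horizontal axis, log scale) for the 891 members, each a point. Red points hold a perfect tandem repeat of at least 20 bp and grey points do not; the member near Scn8a stands alone at 9443 bp and a score of 305.37, and most red points lie among the wider members.

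Part of the strongest members had copies elsewhere in the genome. A stretch of 31 bases was called repeated when it occurred more than once in the assembly on either strand. In the median member 0.469% of stretches were repeated, against 2.06% in the sequences of the same size beside the members, and 426 members (47.8%) held none. In 38 members (4.26%, 3.12 to 5.80) more than 50% were repeated. The mean repeated share was 6.88%, 5.51% and 7.17% from the lowest to the third quartile group of scores and 14.2% in the highest. Among the top 10, the share was 68.8% near Gm17379, 66.1% near Tagap and 42.5% near Fcho1, and 1.06% near Scaf11, 1.64% near Casz1, 3.60% near Myo16 and 8.78% near Scn8a. Reads were kept at single best positions, and how copies moved the scores was not tested.

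Members also resembled each other. At least 31 bases were shared with another member in 232 of the 891 (26.04%, 23.3 to 29.0), and the pair with most such stretches in common, 307, lay near Tas2r134 on chromosome 2 and Hephl1 on chromosome 9. Simple tandem repeats, with a unit of 1 to 6 bases and at least 20 bp long, occurred in 22.8% of members (20.1 to 25.7) and in 28.3% (26.2 to 30.4) of the sequences beside them. The share was 11.5% (8.92 to 14.8) within 5 kb of starts, 14.4% (12.5 to 16.6) inside gene bodies and 22.5% (18.7 to 26.9) over 100 kb out. It was larger at higher scores, with 12.1% in the lowest quartile group of scores and 43.5% in the highest, but the median width was also larger, 429 and 848 bp. By unit, repeats of AGCAGG were found in 22 members, 2.47% (1.64 to 3.71), against 1.01% (0.641 to 1.59) of neighbouring sequences. Repeats of ATC were in 23 members, 2.58% (1.73 to 3.84), and in 0 of the 1780 neighbouring sequences, which allows a share of up to 0.169%. Repeats of ACCATC were in 9 members and in 0 neighbours. Other units went the opposite way. Repeats of A were in 2 members, 0.224% (0.0616 to 0.815), against 2.36% (1.75 to 3.17) of neighbours. Those of AG were in 11, 1.23% (0.691 to 2.20), against 3.43% (2.68 to 4.38). The units named here were picked after their counts were seen. These counts take the longest repeat of each sequence. The longest of all, 130 bp of AGCAGG, lay in the member near Postn. Repeats of AC, the most frequent unit, were in 50 members and in 6.52% of neighbours.

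Peaks near one another were more frequent among members than near starts or in remote intergenic sequence. Another peak lay within 10 kb of 148 members (16.6%, 14.3 to 19.2), against 9.35% (7.01 to 12.4) of peaks within 5 kb of starts, 12.7% (10.9 to 14.8) inside gene bodies and 9.87% (7.31 to 13.2) over 100 kb out. The interval was apart from those of the first and the last of these classes. Members formed 62 clusters with each other, of which 53 were pairs, 8 were triplets and 1 held 6. Among the 659 members that shared no 31 bases with another member the share was 14.1% (11.7 to 16.98), which overlaps all 3 of these classes with all their peaks kept, and this subset was chosen after the values were seen.

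The cluster of 6 lay upstream of Tagap, a gene for a GTPase-activating protein of T cells, and spanned 8841 bp at chr17:8097723-8106563 inside the long non-coding RNA gene D030054H15Rik. Its scores in order of position were 11.02, 29.75, 61.12, 28.23, 95.38 and 23.56. The first and the second had no repeated stretches, and in the other 4 the repeated share lay between 57.6% and 68.6%. Elovl6, a fatty acid elongase gene, had 4 members upstream, 3 of them within 6932 bp with scores of 21.23, 16.38 and 32.03, and 1 at 82260 bp with a score of 11.98. Another 20 genes had 3 members each. The 3 of these with the highest scores are given. Peg10 had members with scores of 151.88, 12.93 and 19.11 in a span of 8425 bp. Scaf11, which codes for a protein linked to splicing, had scores of 77.67 and 33.26 upstream and 29.20 downstream. Kcnk16, a potassium channel gene, had scores of 22.43, 48.98 and 47.50 within 5027 bp, with GC contents of 66.0%, 64.5% and 58.0% at their centres.

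The midpoint lay inside a gene that does not code for protein in 58 members (6.51%, 5.07 to 8.32), and such genes cover 4.94% of the territory. The lower end of the interval lay just above that background, but 6 of the 58 were 1 cluster in a single lincRNA gene, D030054H15Rik. All 58 together had 32 overlaps with lincRNA genes, 24 with processed transcripts and 5 with pseudogenes. The most prominent after D030054H15Rik was Gm2990, at a member near Chat, the gene for the enzyme that makes acetylcholine, with a score of 62.21. A member of 756 bp near Cryba2 (score 10.87) reached into the gene of Mir375, a microRNA known from pancreatic islets, at chr1:74947226-74947300, and a member near 2610034B18Rik (score 20.01) overlapped a second microRNA gene. These 2 were picked by annotation and were the only members over a microRNA gene.

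The centres of members were richer in G and C than their surroundings. The central 200 bp had a median GC content of 48.5%, windows 1 kb outside both ends of the peak had 46.0%, and the 3373558 tiles of 200 bp that fill the territory had 42.5%. The median was 51.0% for peaks within 5 kb of starts and 45.5% for those over 100 kb out, where windows outside had 47.5% and 43.0%. The observed over expected CpG ratio of members was 0.160, and 0.159 in their outer windows.

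Short sequences marked the centres more clearly. Of all 6-mers, counted on both strands together, 42 were found in a larger share of central windows than of outer windows with intervals apart and 91 in a smaller share, and the lower ones with the largest differences were runs rich in A. The largest difference was for CACCCC, found in 26.2% (23.4 to 29.1) of centres and in 12.4% (10.96 to 14.03) of outer windows. It was found in 9.25% of the tiles of the territory, and in 14.1% when tiles were weighted to the GC content of the members. ACCCCT (20.7% against 10.4%), AACTGC (15.8% against 8.26%), CCACCC (22.6% against 15.3%) and CTCCTC (24.4% against 17.1%) followed. CAGGGG (20.9% against 13.7%) and CTGCTC (24.1% against 17.1%) came next. The 10 with the largest differences also held ATGATG (16.6% against 10.1%), then ACACCC (16.4% against 9.94%), and last GGGTGA (15.4% against 9.27%).

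Of these 10, 5 occur in a Paupar capture oligonucleotide, while 75 6-mers, 3.61% of all, occur there. Among all 42 that were higher in centres, 13 did. In CHART254 the higher shares ran over 7 neighbouring 6-mers, starting at bases 7 to 13. In CHART2041, 4 of the 19 positions were higher, with the largest difference, 7.57 percentage points, at base 9, and 1 was lower. In CHART2067 and CHART428, 1 position each was higher, and 1 of CHART2067 was lower. Of the 20 positions of the LacZ oligonucleotide, 0 had intervals apart in either direction. Peaks had to be present against the LacZ pull-downs, which can leave out sites that this oligonucleotide drew down. The LacZ positions are therefore not an independent control.

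**Figure D3:**
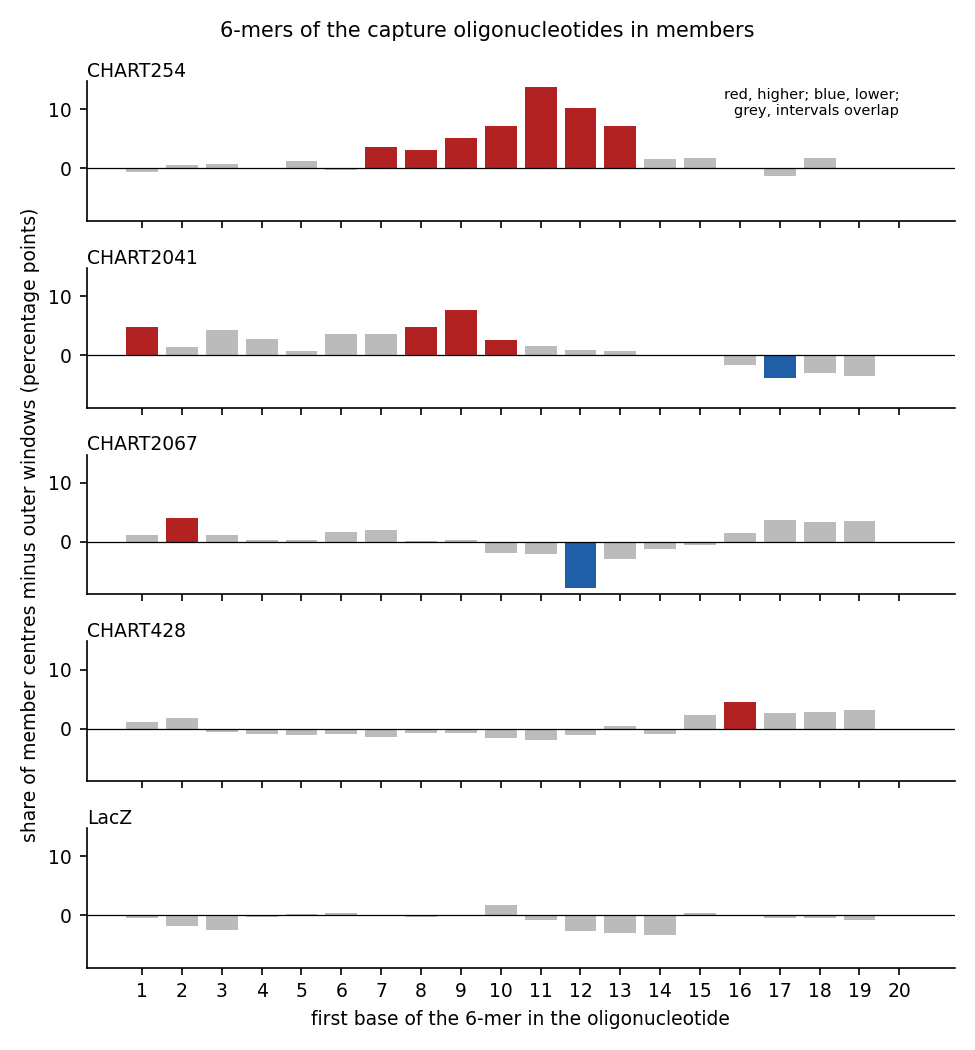
Share of the 891 member centres (200 bp) that hold a 6-mer minus the share of outer windows 1 kb away, in percentage points (vertical axis), for the 6-mer that starts at each base of the 4 Paupar capture oligonucleotides and the LacZ control (horizontal axis). Red bars are higher and blue bars lower in centres with 95% Wilson intervals apart, grey bars have intervals that overlap, and the red bars run together over bases 7 to 13 of CHART254, where the largest reaches 13.7 points.

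Longer matches showed the same. A stretch of at least 10 bases of a Paupar capture oligonucleotide lay in the central 200 bp of 83 members (9.32%, 7.58 to 11.4), against 3.26% (2.53 to 4.19) of outer windows, 2.90% of tiles of the territory and 2.77% of tiles weighted to the members' GC content. The same count for the LacZ oligonucleotide was 0 of 891 centres, which allows a share of up to 0.337% (3 counts of the total), 7 of 1780 outer windows and 0.169% of tiles. It is 1 oligonucleotide against 4, and the peaks were called against its own pull-downs. At so low a share in tiles a count of 0 does not show a lower share in centres. Over whole peaks the shares were 24.02% (21.3 to 26.9) for members and 10.7% (9.32 to 12.2) for the neighbouring sequences of the same size. By oligonucleotide, the central shares against outer windows were 3.37% against 0.674% for CHART254 and 2.69% against 0.674% for CHART2041, with intervals apart, and 1.80% against 1.01% for CHART428 and 1.57% against 0.955% for CHART2067, with intervals that overlapped.

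**Figure D4:**
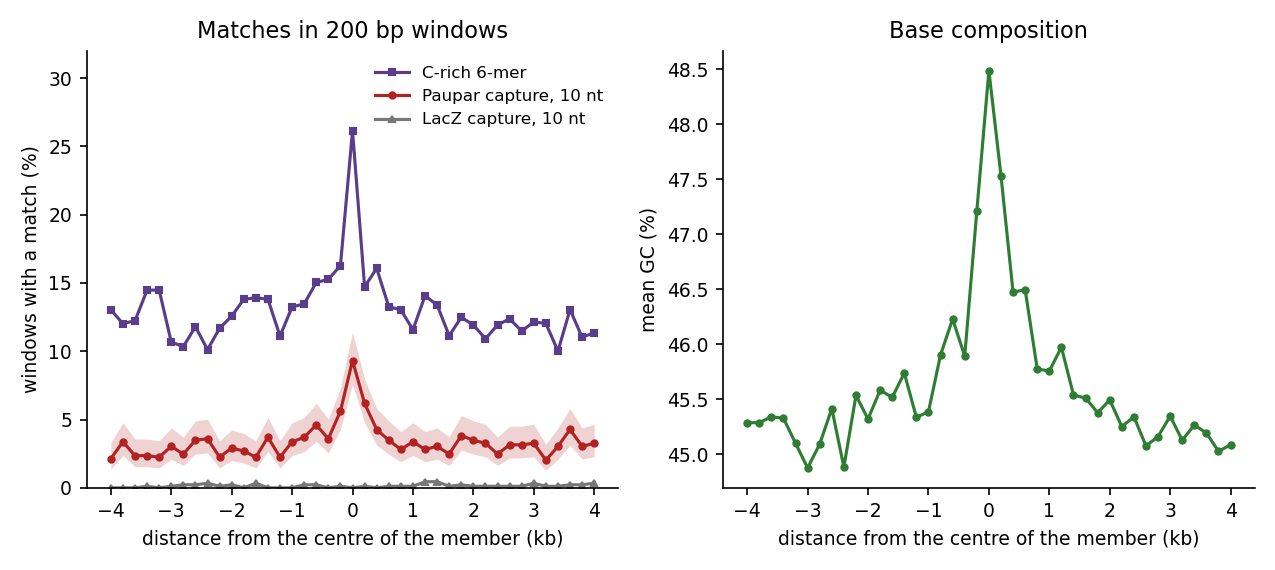
Left, the share of 200 bp windows around members (vertical axis, percent) that hold the C-rich 6-mer described in the text (purple), at least 10 bases of a Paupar capture oligonucleotide (red, with its 95% Wilson interval shaded) or of the LacZ oligonucleotide (grey), by distance from the centre in kb. Right, the mean GC content of the same windows on an axis that does not start at 0, which peaks at 48.5% at the centre.

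Matches in the central window were not a feature of the strongest members. With a match in the centre the median score was 11.9 (n = 83) and without 13.1 (n = 808). From the lowest to the highest quartile group of scores, the central share was 11.7% (8.08 to 16.5), 9.87% (6.61 to 14.5), 9.46% (6.27 to 14.03) and 6.28% (3.78 to 10.3), with intervals that overlap. Over whole peaks the shares in the same order were 24.2%, 20.6%, 24.3% and 26.9%. Median width was 429 bp in the lowest group and 848 bp in the highest. The central window therefore covers a smaller part of the strong members. Central matches were somewhat more frequent among members without repeats. Among the 426 members with no repeated stretch, 13.1% (10.3 to 16.7) had a central match against 3.29% (2.28 to 4.71) of their outer windows, and CACCCC was in 32.6% (28.3 to 37.2) against 12.3% (10.3 to 14.7). They were not particular to this distance either, since the central shares were 11.3% within 5 kb of starts, 9.97% inside gene bodies and 10.4% over 100 kb out. Within the members the central share was between 8.51% and 10.1% in all 4 distance classes. It was 11.6% (9.22 to 14.4) upstream of the nearest start and 5.13% (3.18 to 8.17) downstream, a difference noticed in the data. Over whole peaks the shares were 25.0% (21.7 to 28.7) upstream and 22.1% (17.9 to 27.0) downstream, with intervals that overlap. Median widths were 540 and 603 bp. Contact of the capture oligonucleotides with genomic DNA was not measured, and its part in these peaks was not tested.

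Stretches of the Paupar transcript itself were not longer in members than beside them. The transcript was placed at chr2:105498019-105501535 on the minus strand, 3517 bases between the outer ends of the primers that amplify it. The longest exact match of a member to it had a median of 11 bases, against 12 for the neighbouring sequences. The longest over all members, 59 bases, was below the 69 bases of the longest neighbour. The member with the match of 59 bases, 40634 bp upstream of Asb5, also held a tandem repeat of 59 bp. Tandem repeats were in 22.8% of members and 28.3% of neighbouring sequences. Among the 10 members with the highest scores, the longest matches were 40 bases near Peg10 and 35 near Plch2. The tandem repeats of these members were 40 and 35 bp long. The positions of match and repeat were not compared. Whether the longest matches were simple repeats, rather than sequence particular to Paupar, was therefore not tested.

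Motifs of known factors were searched as exact letters on both strands in the central 200 bp. Besides CACCCC, a box that many Krüppel-like factors read, and ATCATC, 1 other of the 15 motifs had a share above outer windows with intervals apart. This was CAGGGGGC, letters from the core of the CTCF site, in 18 members (2.02%, 1.28 to 3.17) against 0.730% (0.427 to 1.25), and in 0.741% of tiles weighted to the members' GC. It contains CAGGGG, so it shares letters with CHART254. ATCATC was in 13.2% (11.2 to 15.6) against 7.42% (6.29 to 8.73). The homeodomain core TAATTA was less frequent, in 2.81% (1.91 to 4.11) against 5.39% (4.44 to 6.54), in a region of higher GC content. In tiles weighted to that content it was in 3.38%, inside the interval. TTCACGC, the start of the paired-domain site of PAX6, was in 3 members (0.337%, 0.115 to 0.985) and in 0.393% of outer windows. The proneural E-boxes CAGCTG (9.32% against 10.2%) and CAGATG (16.7% against 13.9%), the SOX core ACAATG (11.3% against 11.2%), the AP-1 site TGANTCA (6.73% against 5.73%), the RBPJ site GTGGGAA (4.602% against 4.33%), the GC box GGGCGG, the octamer, the forkhead, TEAD and NFI letters had intervals that overlapped. A match of letters is not a bound site, and a missing one says only that these letters are not in this window.

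Members had 764 nearest genes among the 17457 protein-coding genes that own some of the territory, which is 4.38%. Of these, 663 genes had 1 member, 79 had 2 and 22 had more. The 13 gene lists that follow were read against this share and, since long intergenic gaps collect more members, against the density of 1.31 per Mb over all genes. Of the 13, the density interval of 1 list, the olfactory receptors, left out the overall density.

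**Figure D5:**
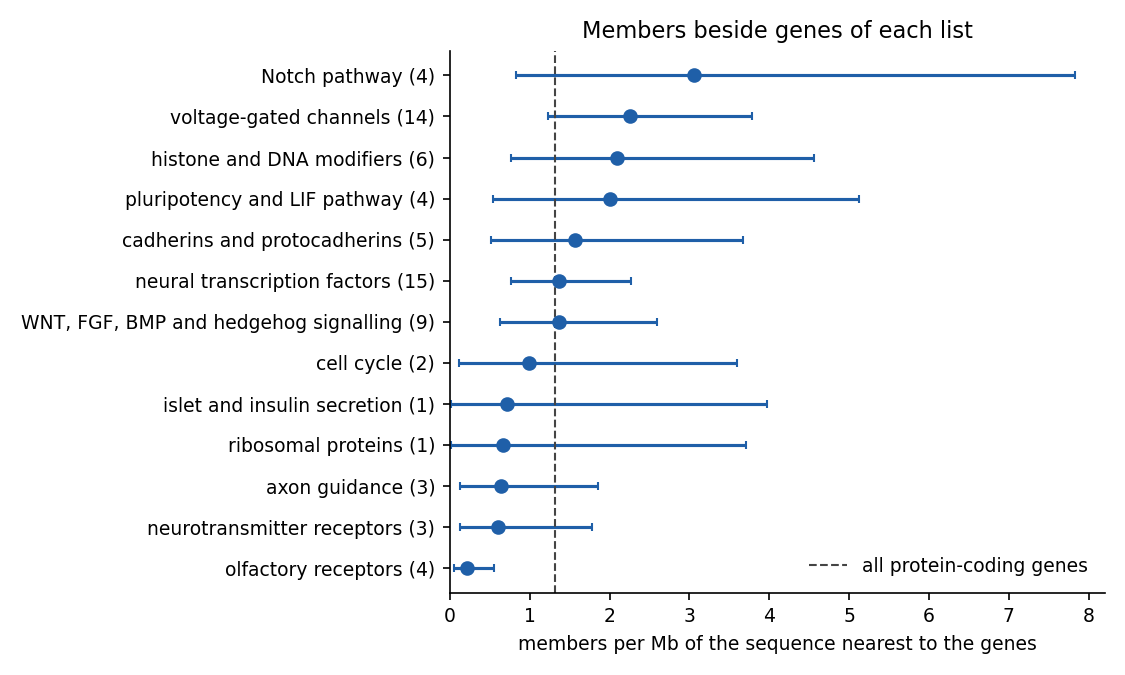
Members per Mb of the sequence nearest to the genes of each list (horizontal axis), with the number of members in brackets and 95% exact Poisson intervals. The dashed line is the density over all protein-coding genes, 1.31 per Mb; it lies within the interval of every list but that of the olfactory receptors.

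In the Notch pathway, which keeps neural progenitors from differentiating, 3 of 31 genes had members (9.68%, 3.35 to 24.9), at 3.06 per Mb (0.833 to 7.83). Hes1 and Hes5 code for repressors that carry out the Notch signal, and Notch3 for a receptor. Hes1 had 1 member 79620 bp downstream of its start with a score of 11.20 and 1 member 50814 bp upstream with a score of 7.58, inside the lincRNA gene 4632428C04Rik. Hes5 had a member 14900 bp upstream with a score of 9.99, and Notch3 had one 49116 bp downstream with a score of 7.84. All 4 scored below the members' median of 12.98. The centre of the Hes5 member was dense in the 10 6-mers, with 39 of 200 letters, shown in capitals.

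Hes5, chr4:154320032-154320231, plus strand: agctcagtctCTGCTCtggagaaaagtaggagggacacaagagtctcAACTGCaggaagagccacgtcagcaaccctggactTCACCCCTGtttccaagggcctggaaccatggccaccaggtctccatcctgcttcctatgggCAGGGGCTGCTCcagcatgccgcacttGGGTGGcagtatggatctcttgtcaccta

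Neural transcription factors had members at 14 of 152 genes, 9.21% (5.57 to 14.9), which is above 4.38%. They own 71.9 kb of the territory each against 38.8 kb over all genes, and their density of 1.37 per Mb (0.769 to 2.26) was close to the overall one. The highest scores were beside Id4 (31.68), an inhibitor of basic helix-loop-helix factors, Neurod2 (20.20), a factor of maturing neurons, Hand2 (16.60), Gata2 (14.41 and 7.05) and Neurog3 (12.36). The list had 9 of its 15 members at a score of 10 or more.

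Voltage-gated channels and their relatives had 9 of 117 genes with members (7.69%, 4.10 to 13.97) and 14 members, 13 of them with a score of at least 10, at 2.25 per Mb (1.23 to 3.78). After Scn8a and Kcnk16, Kcnk15 had a score of 26.94, Kcnab2 of 19.46 and Kcnj15 of 17.08. Scn8a was the only sodium channel gene among them. Histone and DNA modifiers had 6 of 91 genes with members, led by Ezh2 (37.99), the methyltransferase of Polycomb, Prdm11 (34.08), Hdac2 (16.67), a deacetylase, Phf17 (13.71) and Eed (11.46), the partner of Ezh2 in Polycomb. All 6 lay upstream, the share of genes was 6.59% (3.06 to 13.6) and the density was 2.10 per Mb (0.770 to 4.56).

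Signalling genes of the WNT, FGF, BMP and hedgehog families had members at 9 of 113 genes (7.96%, 4.25 to 14.4), at 1.37 per Mb (0.624 to 2.59). The inhibitor Dkk1 had the highest score (21.36), followed by the receptor Fzd2 (16.27), the nuclear effector Tcf7l2 (15.76), the ligand Gdf3 (13.53) and the ligand Wnt4 (12.04). Pluripotency and LIF pathway genes had members at Tbx3 (19.77), Socs3 (19.60 and 8.27) and Klf2 (8.73), 3 of 24 genes. Cadherins had members at Fat3 (22.96), Pcdh1 (12.13, 10.78 and 9.96) and Cdh11 (7.17), 3 of 58 genes. Their share was 5.17% (1.77 to 14.1) and their density 1.57 per Mb (0.511 to 3.67).

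The remaining lists had few members each, and their shares are read beside 4.38% over all genes. Only the olfactory receptors had a density interval that left out the overall density. Axon guidance genes had 3 of 78 (3.85%, 1.32 to 10.7), Sema4d (35.76), Ephb3 (17.64) and Ephb2 (12.53). Neurotransmitter receptors had 3 of 94 (3.19%, 1.09 to 8.97), Adra2a (28.34), Drd1a (17.92) and Adrb3 (10.63). Their densities were 0.636 (0.131 to 1.86) and 0.608 (0.125 to 1.78) per Mb. Cell cycle genes had 2 of 43 (4.65%, 1.28 to 15.5), Ccna1 (14.34) and Mcm5 (7.21). Islet genes had 1 of 24 (4.17%, 0.739 to 20.2), Mafa (14.96), an activator of the insulin gene. Ribosomal proteins had 1 of 54 (1.85%, 0.328 to 9.77), Rps12 (63.28). Olfactory receptors had members at 3 of 1052 genes, 0.285% (0.0970 to 0.835), at 0.216 per Mb (0.0588 to 0.552). Their 4 members were Olfr1393 with scores of 15.94 and 11.86, Olfr54 with 10.99 and Olfr1260 with 10.25.

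Primer pairs of the study amplified sequence in members, of which 6 are given here. The product named for Hes1 covered 168 bp of its downstream member, and a longer product of 2135 bp covered 89.3% of it. The product named for Mitf, a factor of pigment cells and the retina, lay in a member of 203 bp 87511 bp upstream with a score of 6.57. The product named for Igfbp5, an insulin-like growth factor binding protein, was 187 bp long and lay in a member with a score of 23.66 whose nearest start is that of Tnp1. The product named for Cdkn2c, a cell cycle inhibitor, lay in a member with a score of 6.04 nearest to 4930522H14Rik. One named for Kdm7a, a histone demethylase, overlapped 2 members nearest to Slc37a3 with scores of 9.32 and 13.26. The genes named in the last 3 of these products were not the nearest by position. Among these, 3 members with a short product are shown, because primers were designed on them. Capitals mark the amplified sequence, with up to 50 bases of the peak on each side.

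Hes1, chr16:30144804-30145071, plus strand: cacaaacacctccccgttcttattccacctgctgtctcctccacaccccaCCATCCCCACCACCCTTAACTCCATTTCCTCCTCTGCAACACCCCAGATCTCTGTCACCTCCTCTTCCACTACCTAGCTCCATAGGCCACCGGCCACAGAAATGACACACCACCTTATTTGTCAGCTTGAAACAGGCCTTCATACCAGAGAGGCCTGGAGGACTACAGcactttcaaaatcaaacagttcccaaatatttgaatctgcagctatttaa
Mitf, chr6:97669465-97669642, plus strand: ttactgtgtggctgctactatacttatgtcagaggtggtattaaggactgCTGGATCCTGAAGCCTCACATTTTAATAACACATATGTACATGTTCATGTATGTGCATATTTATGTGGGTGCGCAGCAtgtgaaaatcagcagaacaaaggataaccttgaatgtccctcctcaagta
Igfbp5 product, chr1:73010364-73010650, plus strand: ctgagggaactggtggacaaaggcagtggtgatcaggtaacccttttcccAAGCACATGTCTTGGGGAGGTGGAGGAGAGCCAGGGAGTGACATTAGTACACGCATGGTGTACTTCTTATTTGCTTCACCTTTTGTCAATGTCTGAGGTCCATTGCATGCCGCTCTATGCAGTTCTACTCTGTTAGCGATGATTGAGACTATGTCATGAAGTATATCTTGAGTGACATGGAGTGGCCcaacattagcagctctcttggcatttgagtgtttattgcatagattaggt

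The 3 members printed last also differed in composition. The Igfbp5 and Mitf members held no repeated stretch, and 9.49% of stretches were repeated in the downstream member of Hes1. Their central GC contents were 42.5%, 41.0% and 53.0%.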

How the data were processed

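The 5 libraries of N2A chromatin (Paupar CHART in duplicate, LacZ CHART in duplicate, input) were sequenced in paired-end mode. Alignment by the authors was to mm9 (Bowtie), peak calling was with MACS2, and a peak had to be present against LacZ and also against input. The deposited list holds 2849 intervals, each with a score whose scale is not stated in it, and no library values. How the pull-downs were joined, and their depth, are not given in the sources used here. Members were found by midpoint with the GENCODE annotation of the NCBIM37 assembly, which mm9 denotes. Territories were counted base by base, leaving out ambiguous bases, and each base was given to its nearest start. Central windows were 200 bp, outer windows lay 1 kb beyond each end, and neighbours were the flanking sequences of the same size. Matches were exact on both strands. Not every primer product is reported here. No test was run, and a count of 0 was taken to allow 3 counts. Sequences of oligonucleotides and primers came from the study's supplementary tables, and all values from the list and the genome. Steps were tested on simulated data (Python 3.11.15). Members, lists and motifs were chosen with earlier results of these data known. Named are the 10 highest scores, the 3 widest members, the 5 genes with most members (ties by score), the members at the limits, those of genes and primers of the study, the 6 longest matches (ties by score) and up to 5 genes a list. Those at microRNA genes, Chat and the pair with most shared stretches were chosen after their values were seen.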

Additional observations from a re-analysis of the deposited data

How the results depend on the processing

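No paired analysis was possible because the list pools the pull-downs, and for the same reason no library could be left out. Of 49 values recomputed under an alternative, 32 stayed within the interval of the value in the text (or within 1.5 times a count) and 17 did not; none was tested. With a score of at least 10, density was 0.951 per Mb, the median width 616 bp and the share with a tandem repeat 27.0%. With peaks within 10 kb merged, density was 1.19 per Mb. With every transcript start, 59.1% of members lay upstream. Members of at most 1 kb had a median score of 12.15. Another peak lay within 100 kb of 44.3%, and within 10 kb of 14.1% of members with no stretch shared with another, an alternative added after seeing the data. The median GC content was 49.0% in the central 100 bp and 48.0% over the whole interval. A capture match of at least 9 nt was in 58.4%, of at least 12 nt in 1.57%, and in the central 200 bp in 9.32%. The median longest match to Paupar was 10 bases in the central 200 bp, and tandem repeats of at least 30 bp were in 10.8%. Taking both flanking genes gave 1447 genes, 109 of them listed, in place of 764 and 60. Where an alternative moved the definition itself, the move follows from what is counted. This holds for match length, the sequence searched for a match, repeat length, both flanking genes and the 100 kb limit. The densities of 0.951 and 1.19 per Mb fell because fewer peaks, 645 and 808, were set over the same bases. For the others the cause was not tested.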
